A study of Mus musculus with 3 samples.

Results

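The genes described here are the endothelial selectins Selp and Sele and the mucin-like glycoproteins that selectins bind, Glycam1, Cd34, Podxl, Emcn, Madcam1 and Selplg. They were taken by gene symbol, by a rule that has no threshold on their values. All 8 were found, with exactly 1 entry each in every deposited table, out of 48568 gene symbols.

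RNA was sequenced from whole popliteal lymphnodes of C57Bl/6 mice aged 5 months that had received no treatment. There were 3 groups: wildtype females (6 mice), SryHi males (3 mice) and wildtype males (6 mice). SryHi males are XY males of a mouse model (FCG) in which Sry, the male sex-determining gene, is missing from the Y chromosome and is supplied by a multicopy transgene on an autosome. The mice of a group were pooled into 1 library, so there is no spread between replicates and no difference below has a replicate check. Stroma and parenchyma were homogenized together, and in such bulk tissue fewer cells of a type and less RNA per cell cannot be told apart.

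Selectins are lectins that let leukocytes tether to and roll on vessel walls. They bind sialylated and fucosylated sugars, some of them sulfated, which mucin-like proteins carry. On high endothelial venules, the vessels through which lymphocytes enter lymphnodes, such mucins serve the entry of lymphocytes. P-selectin and E-selectin are made by endothelium, P-selectin also by platelets, and both bind PSGL-1, the product of Selplg, on leukocytes.

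Levels are in FPKM, in which the authors scaled fragments to transcript length and to the mapped fragments of the library. The files give no counts. The smallest common value of FPKM times transcript length was taken as 1 fragment, which put the depth at about 5600000 fragments in females, 5700000 in SryHi males and 6300000 in wildtype males. At least 1 FPKM was reached by 15367 genes in females, 15457 in SryHi males and 15325 in wildtype males. All 10 T cell markers and all 7 B cell markers of the lists used here passed a mean of 1 FPKM in both comparisons. Sry had 20.8 FPKM in SryHi males and was listed at 0 in both wildtype libraries. The wildtype male library had the same values in both tables for all but 2 symbols, none of them a member.

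The mucin character of the ligands can be read from their genes. The ligands were chosen as mucin-like proteins, so the shares below describe them and test nothing. Serine and threonine, the residues that carry O-linked sugars, took 29.1% of the codons of Emcn, 27.8% of Glycam1, 27.6% of Podxl, 24.3% of Cd34 and 22.8% of Selplg. The median over 21467 protein-coding genes was 13.2%, and these 5 genes each lay above at least 98.9% of them. Madcam1, whose mucin part is joined to immunoglobulin-like domains, had 17.3%. Sele and Selp had 17.9% and 15.9%. The densest stretch of 30 codons held 60% serine and threonine in Podxl, 50% in Glycam1, Cd34 and Selplg, 46.7% in Emcn and 43.3% in Madcam1. In the selectins it held 36.7% (Sele) or 26.7% (Selp). Glycam1 is the shortest coding sequence among them, with 151 codons including the stop against 768 for Selp.

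**Figure D1:**
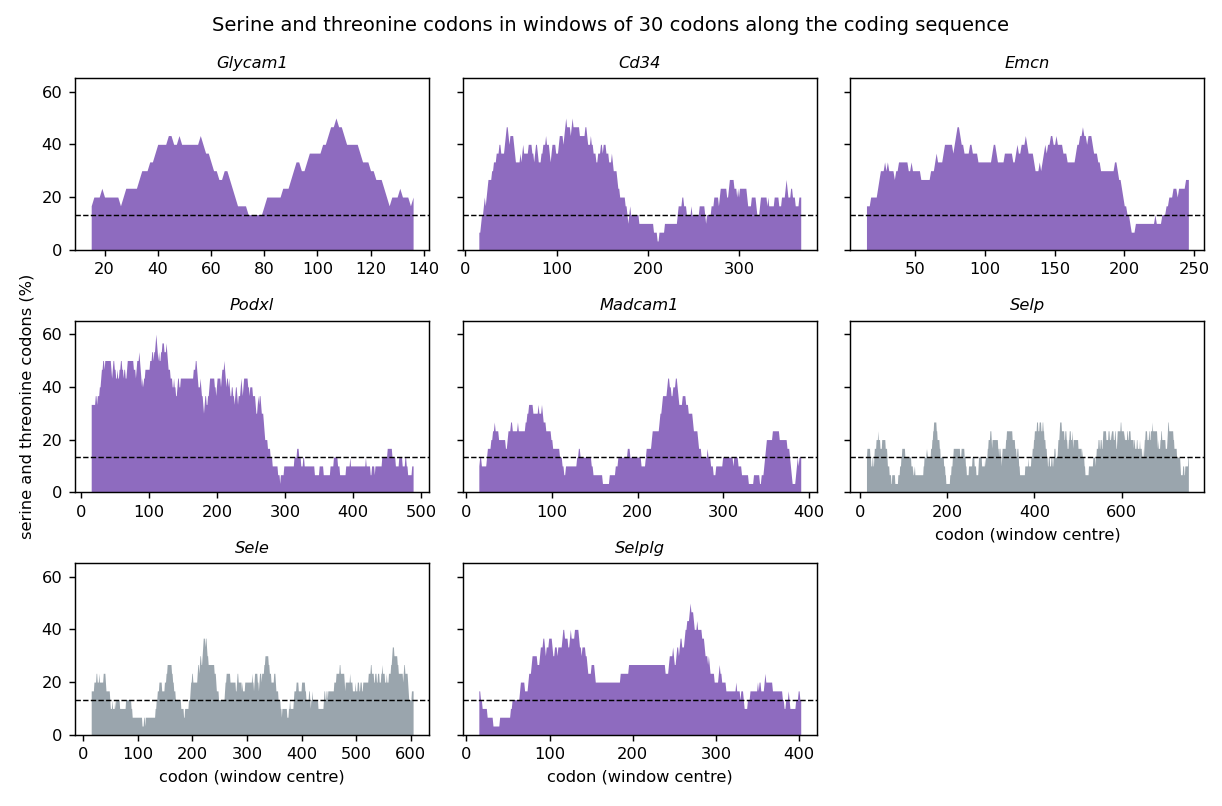
Share of serine and threonine codons (y axis, percent) in windows of 30 codons along the GENCODE coding sequence (x axis, codon at the window centre) of the 8 genes, with mucin-like ligands in purple, selectins in grey and a dashed line at the median of all genes, 13.2%. The mucin stretches reach 43.3% to 60%, and Glycam1 has a peak on each side of a short dip.

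Glycam1 was the most abundant of the 8 genes and by far the most unequal between libraries. It encodes a small secreted mucin of high endothelial venules that carries selectin-binding sugars. It had 1098 FPKM in wildtype females, 89.8 FPKM in SryHi males and 129 FPKM in wildtype males. The female library stood apart from both male libraries, which lay close to each other. Among all symbols its level ranked 70 in females, 701 in SryHi males and 451 in wildtype males. At the estimated depth and a transcript of 628 nt, these levels correspond to at most about 3876, 321 and 510 fragments, so counting error is small beside the gap. Paired reads cover so short a transcript less fully than a long one, so its level relative to longer genes is less secure than its difference between libraries. On GRCm38 its 4 exons span chromosome 15 from 103562759 to 103565081, minus strand (ENSMUSG00000022491.4).

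The other venule mucins were lower in every library. Cd34, the sialomucin of endothelium and blood stem cells, had 16.3 FPKM in wildtype females, 21.2 FPKM in SryHi males and 16.4 FPKM in wildtype males. Emcn (endomucin), a sialomucin of veins and capillaries, had 6.96 FPKM in wildtype females, 8.08 FPKM in SryHi males and 6.09 FPKM in wildtype males. Podxl (podocalyxin), a relative of CD34 found on vessels and on kidney podocytes, had 2.48 FPKM in wildtype females, 3.59 FPKM in SryHi males and 3.28 FPKM in wildtype males. These 3 genes differed little between libraries, with SryHi males the highest in each. Cd34 lies on chromosome 1 from 194938819 to 194961279 (plus strand), Emcn on chromosome 3 from 137341067 to 137432185 (plus strand) and Podxl on chromosome 6 from 31519488 to 31563981 (minus strand). The interval that the authors' tables give for Cd34 reaches to 195092249 and is shared by 12 entries, Cd46 among them.

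Madcam1 encodes the vascular addressin that binds the α4β7 integrin and, when it carries the right sugars, can bind a selectin. It is known above all from vessels of the gut and its lymphoid tissue. In these popliteal nodes it had 2.03 FPKM in wildtype females, 0.493 FPKM in SryHi males and 2.00 FPKM in wildtype males. SryHi males alone stood below 1 FPKM, and the wildtype libraries were level. These values rest on about 16, 4 and 18 fragments, so the SryHi level is poorly determined. The gene lies on the plus strand of chromosome 10 from 79664559 to 79668537.

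The stretches upstream of the start sites of Glycam1 and Madcam1 are shown because these are the members past 2-fold in the comparisons given further on. Of the 8 genes, 6 have a promoter in the RefSeq table (GRCm38.p6). The 250 bases before the start were searched on both strands for AGGTCA (a nuclear receptor core motif), AGAACA (a steroid receptor core motif of androgen and glucocorticoid receptors), AACAAT (SRY and SOX factors), GGG and CC with any 5 bases between them (a loose NF-kB motif), CAAGTG (NK2 homeobox factors) and CANNTG (the E-box, which includes CAAGTG). Capitals mark every match, the sequences run 5′ to 3′ on the strand of the gene, and positions count back from -1, the base before the start.
Glycam1, chr15:103565082-103565331, minus strand: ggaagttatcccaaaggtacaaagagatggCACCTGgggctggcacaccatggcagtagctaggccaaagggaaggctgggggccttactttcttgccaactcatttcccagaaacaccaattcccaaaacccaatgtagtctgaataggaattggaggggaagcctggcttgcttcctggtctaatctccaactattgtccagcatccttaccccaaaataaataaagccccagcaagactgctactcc
Madcam1, chr10:79664309-79664558, plus strand: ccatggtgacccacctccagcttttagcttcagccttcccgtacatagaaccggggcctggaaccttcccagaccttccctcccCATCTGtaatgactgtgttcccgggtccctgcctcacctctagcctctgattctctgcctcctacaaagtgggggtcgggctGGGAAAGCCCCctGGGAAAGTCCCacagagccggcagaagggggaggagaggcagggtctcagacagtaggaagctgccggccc

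The Glycam1 stretch held a single match, an E-box from -220 to -215, and none of the other motifs. An E-box occurs in 66.0% of the 27025 promoters searched. The Madcam1 stretch held an E-box from -166 to -161 and 4 overlapping matches to the NF-kB motif in 2 blocks, from -84 to -74 and from -71 to -61. A match of that kind occurs in 45.4% of promoters. Sele, Selp and Cd34 held 1 NF-kB match each. The SRY and SOX motif was found in Emcn alone of the 6, from -50 to -45, and occurs in 9.65% of promoters. AGGTCA was found 2 times in Emcn and 1 time in Selp and occurs in 13.8% of promoters, and AGAACA (16.2% of promoters) was in none of the 6. These are matches of letters in a short window and show no binding.

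The summed level of the 5 venule mucins was 1126 FPKM in wildtype females and 123 FPKM in SryHi males, against 157 FPKM in wildtype males. Glycam1 made up 97.5% of it in females, 72.9% in SryHi males and 82.3% in wildtype males. Without Glycam1 the sum was 27.8 FPKM in females and 33.4 FPKM in SryHi males, against 27.8 FPKM in wildtype males. The summed RNA of Cd34, Podxl, Emcn and Madcam1 was thus level between the sexes. Cd34 was the largest part of that remainder in all 3 libraries, between 58.7% and 63.5%. The sum leaves out Cd300lg, a sialomucin of venules outside the set, with 12.3 FPKM in wildtype females, against 21.6 FPKM in wildtype males.

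Both endothelial selectins were scarce. Selp (P-selectin) had 2.07 FPKM in wildtype females, 1.81 FPKM in SryHi males and 1.59 FPKM in wildtype males, or about 40, 35 and 34 fragments. Its interval in the authors' tables also holds F5, the gene of a coagulation factor. Sele (E-selectin), which endothelium makes after inflammatory stimuli, had 0.174 FPKM in wildtype females, 0.309 FPKM in SryHi males and 0.0541 FPKM in wildtype males. This is about 3, 5 and 1 fragments, too few for any comparison between libraries, and no fold is given. Sele lies on chromosome 1 from 164048234 to 164057677 and Selp on the same chromosome from 164115264 to 164150026, both on the plus strand.

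Selplg, the gene of the leukocyte ligand PSGL-1, followed Glycam1 in abundance in every library. It had 81.3 FPKM in wildtype females, 69.1 FPKM in SryHi males and 72.7 FPKM in wildtype males, on about 847, 730 and 846 fragments. It lies on the minus strand of chromosome 5 from 113818536 to 113832644. The order of levels was the same in all 3 libraries down to Podxl, namely Glycam1, Selplg, Cd34, Emcn and Podxl. In SryHi males Glycam1 and Selplg were the closest, and the short Glycam1 transcript makes their order there insecure. Below Podxl, Selp and Madcam1 were within 0.5 FPKM of each other in both wildtype libraries, and at that depth their order is not distinguishable. In SryHi males Madcam1 stood below Selp, and its order with Sele, on about 4 and 5 fragments, is not distinguishable. Sele was the lowest in both wildtype libraries.

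**Figure D2:**
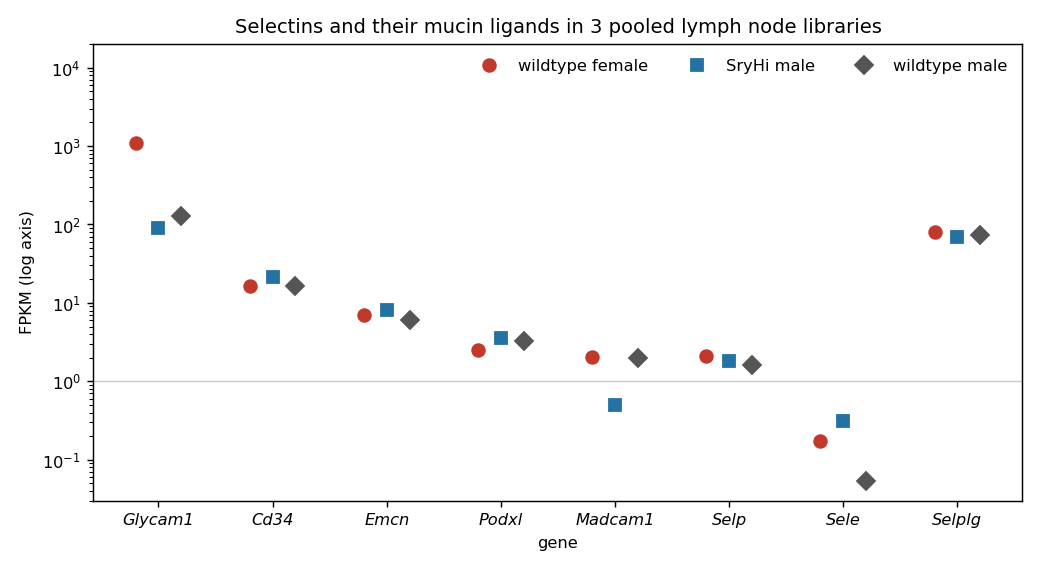
FPKM (y axis, log scale) of the 8 genes in 3 libraries, 1 pooled library per group (circles, wildtype female; squares, SryHi male; diamonds, wildtype male). The grey line marks 1 FPKM, and Glycam1 reaches 1098 FPKM in females, 89.8 FPKM in SryHi males and 129 FPKM in wildtype males, while the SryHi square of Madcam1 is at 0.493 FPKM.

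The first comparison set wildtype females over wildtype males, a contrast of sex. The log2 ratio of FPKM + 1 was taken, a scale that understates the change of low genes, and genes whose mean over the pair fell short of 1 FPKM were left out. A gene was called at a 2-fold difference on that scale. Of the 8 genes, 7 passed the filter and Sele did not. Glycam1 was called higher in females, with a log2 ratio of 3.08, and no member was called lower. Over all 15523 genes kept, 2.83% were called higher and 2.77% lower. Glycam1 had 71 genes above it, and its ratio lay above 99.5% of all genes. The other members kept ran between -0.30 and 0.25, well inside 2-fold. They were Podxl at -0.30, Cd34 at -0.01, Madcam1 at 0.01, Selplg at 0.16, Emcn at 0.17 and Selp at 0.25. The median of the 7 was 0.16 and that of all genes 0.01.

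Glycam1 has a short transcript, and short transcripts varied more between these libraries. Among protein-coding genes kept with a transcript of 500 to 800 nt, 4.82% passed 2-fold upward in females and 5.12% passed it downward. In the class of 2000 to 20000 nt these shares were 0.540% and 1.06%. Of the 332 genes of its own length class, 0 had a higher ratio than Glycam1. By the distance of both log2 ratios, over 3 libraries and 8934 named genes whose mean reached 5 FPKM in both comparisons, the nearest to Glycam1 were Snora17, Hist1h2ao, Snora68, Snora28 and Rny1. These are small nucleolar RNAs, a replication-dependent histone gene and a Y RNA. Snora17, the closest, had 154 FPKM in wildtype females, 27.2 FPKM in SryHi males and 28.6 FPKM in wildtype males. Its distance was 0.823 on the log2 scale, and no venule gene was among the 5. The nearest member was Selp, at a distance of 2.90, whereas Cd34 and Emcn were 0.179 apart.

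Venule and vessel genes were then set beside Glycam1. Of the 9 high endothelial venule markers, some of which also stand in the lists of ligands and enzymes, 4 lay above 0 and 5 below, with a median log2 ratio of -0.13. Ubd, a ubiquitin-like protein, was the only one past 2-fold, with 33.1 FPKM in wildtype females, against 12.5 FPKM in wildtype males. Ackr1, the atypical chemokine receptor of venules, had 10.7 FPKM in wildtype females, against 7.60 FPKM in wildtype males. Per unit of Ackr1, Glycam1 was at 103 in females and 7.29 in SryHi males, against 17.0 in wildtype males. Per unit of Chst4, a sulfotransferase of venule mucin sugars, it was at 274 in females and 39.0 in SryHi males, against 49.6 in wildtype males. Per unit of the general endothelial gene Pecam1 it was at 9.96 in females and 0.746 in SryHi males, against 1.27 in wildtype males. Per unit of Ubd the gap was smallest of these, at 33.2 in females and 5.35 in SryHi males, against 10.4 in wildtype males. Glycam1 was highest in the female library on all 4 bases.

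Endothelial markers as a whole were lower in the female library. Of 16 blood endothelial markers 4 lay above 0 and 12 below, with a median log2 ratio of -0.41, and their summed level was 309 FPKM in wildtype females, against 394 FPKM in wildtype males. Cldn5, a tight junction gene, was past 2-fold, with 11.1 FPKM in wildtype females, against 26.9 FPKM in wildtype males. Relative to the median of this list, the log2 ratios of the members were 3.48 for Glycam1, 0.65 for Selp, 0.57 for Emcn, 0.57 for Selplg, 0.42 for Madcam1, 0.39 for Cd34 and 0.11 for Podxl. All genes kept had a median of 0.42 on that scale. All 6 lymphatic endothelial markers kept lay below 0, with a median of -0.81. All 10 T cell markers lay above 0, with a median of 0.43, and their sum was 532 FPKM in females, against 406 FPKM in wildtype males. They were uneven, from 0.01 for Cd3e to 0.74 for Cd3d. Cd3e, Cd4 (0.02) and Zap70 (0.02) lay near the median of all genes as deposited, 0.01. The part of these shifts in the ratios of the members was not tested.

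Selp and Glycam1 can also come from cells outside the vessel wall. Of 9 platelet and megakaryocyte markers only 3 passed 1 FPKM, and the list summed to 21.2 FPKM in wildtype females and 21.5 FPKM in SryHi males, against 29.3 FPKM in wildtype males. Gp6 was listed at 0 in every library and Gp9 at 0 in females and SryHi males. Glycam1 is also made by the lactating mammary gland. The 8 markers of milk and gland epithelium summed to 3.72 FPKM in wildtype females and 1.95 FPKM in SryHi males, against 2.90 FPKM in wildtype males, and 4 of them were listed at 0 in every library. The milk protein gene Csn2 was low throughout, at 0.534 FPKM in females, 0.148 FPKM in SryHi males and a listed 0 in wildtype males. Csn2 and the keratin genes Krt8 and Krt18 were highest in females, but none of them passed the filter. Epcam, the only gene of the list that did, stood lower in females (1.72 FPKM) than in wildtype males (2.81 FPKM). A listed 0 need not mean absence, since Ccl21a, a chemokine gene of lymphnode stroma, was also listed at 0 in every library. The part of such cells in the ratios was not tested.

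Markers of cells that roll on the endothelial selectins also differed between libraries. Of 8 neutrophil and monocyte markers kept, all lay below 0 in females and 5 were past 2-fold lower, with a median of -2.30. In SryHi males 7 of the 8 lay below 0 and 5 were past 2-fold lower, with a median of -1.79. The 5 past 2-fold were the same genes in both comparisons, and the list did not move as a whole. Lyz2, Itgam and Csf1r stayed within 2-fold, at -0.14, -0.53 and -0.53 in females. In SryHi males they were at -0.31, 0.11 and -0.26. S100a8, a calcium-binding protein of neutrophils, had 23.4 FPKM in wildtype females, 41.2 FPKM in SryHi males and 141 FPKM in wildtype males. The 2 selectins summed to 2.25 FPKM in wildtype females and 2.12 FPKM in SryHi males, against 1.65 FPKM in wildtype males. These sums rest on few fragments, and their order is not distinguishable. Of 10 adhesion, chemokine and cytokine genes of endothelium, both selectins among them, 6 were kept, with a median of -0.54 in females and -0.50 in SryHi males. In each comparison 2 of them lay above 0 and 4 below, and not all kept their side. Icam2 was at 0.06 in females and -0.78 in SryHi males. Cxcl1, a neutrophil chemokine, had 0.678 FPKM in wildtype females, 3.61 FPKM in SryHi males and 8.12 FPKM in wildtype males. Mast cell markers had a median of -0.96 in females and 0.12 in SryHi males, stromal and fat cell markers -0.18 and 0.49, and B cell markers 0.12 and -0.08 in the same order of groups.

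SryHi males were compared with wildtype males to ask whether more Sry moves the same genes. No member was called higher and Madcam1 was called lower, with a log2 ratio of -1.01. Over all 15566 genes kept, 3.7% were called higher and 4.14% lower. Madcam1 lay only just past 2-fold and rests on about 4 fragments in SryHi males and 18 in wildtype males. With a pseudocount of 5 FPKM its log2 ratio was -0.35, and it fails a minimum of 5 FPKM. Glycam1 had a log2 ratio of -0.52, within 2-fold, and 12.8% of all genes had a lower one. Emcn had 0.36, Cd34 0.35, Selp 0.12, Podxl 0.10 and Selplg -0.07. The median of the 7 genes was 0.10 and that of all genes 0.04. In the length class of Glycam1 the median was -0.17, and 78 of the other genes of that class with a mean of at least 5 FPKM had a lower ratio and 175 a higher one. The wildtype male library serves as the base of both comparisons.

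Around the members, the median of the blood endothelial markers lay near 0 in SryHi males. The 16 blood endothelial markers fell on both sides, 8 above 0 and 8 below, with a median of -0.00 and sums of 388 FPKM in SryHi males, against 394 FPKM in wildtype males. High endothelial venule markers had a median of 0.31, with 6 of 9 above 0, and Glycam1 and Madcam1 lay below that median. The list did not move as a whole. Its 3 genes below 0 were Chst4 (-0.13), Cd300lg (-0.37) and B3gnt3 (-0.45). Ackr1 had 12.3 FPKM in SryHi males, against 7.60 FPKM in wildtype males. Lymphatic endothelial markers had a median of 0.14, with 3 of 6 kept above 0. Among them Mmrn1 was past 2-fold higher, with 31.0 FPKM in SryHi males, against 14.5 FPKM in wildtype males. MAdCAM-1 is also known in follicular and marginal reticular stroma. Markers of these cells had a median of 0.06, with 4 of 6 kept above 0 and 2 below. The 4 include Cr2 (0.14) and Fcer2a (0.17), which B cells also express, so the list is not purely stromal. Coch was at -0.80. Tnfsf11, the RANKL gene of marginal reticular cells, had 12.9 FPKM in SryHi males, against 12.2 FPKM in wildtype males. The stromal and fat cell list had 4 of 10 genes past 2-fold higher, all of them fat cell genes (Adipoq at 1.42, Plin1 at 1.37, Fabp4 at 1.20 and Cidec at 1.05). The collagen gene Col1a1 was past 2-fold lower, at -1.15, so the list did not move as a whole. Of 10 T cell markers 9 lay below 0, with a median of -0.45. Their part in the ratios was not tested.

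Among other ligands no gene passed 2-fold. Of 7 other selectin ligands and sialomucins 6 were kept in each comparison. In females over wildtype males all 6 lay below 0, with a median of -0.26. The largest shift was that of Cd300lg (nepmucin), a sialomucin of venules, with 12.3 FPKM in wildtype females and 16.5 FPKM in SryHi males, against 21.6 FPKM in wildtype males. Podxl2 (endoglycan), the third gene of the CD34 family, stayed below 1 FPKM throughout. In SryHi males all 6 also lay below 0, with a median of -0.13.

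Of 16 sugar and sulfate enzymes, 7 lay above 0 and 9 below in females over wildtype males, with a median of -0.02 and 0 past 2-fold. In SryHi males over wildtype males 9 lay above and 7 below, with a median of 0.07. B3gnt5, which starts lacto-series chains on glycolipids, was past 2-fold, at 91.8 FPKM in SryHi males, against 45.4 FPKM in wildtype males. It stood almost exactly at the threshold. Gcnt1, the enzyme of core 2 branches that PSGL-1 and venule mucins carry, had 43.7 FPKM in SryHi males, against 26.5 FPKM in wildtype males. Of 4 sialyltransferase genes listed, St3gal6 had a log2 ratio of 0.70 in SryHi males and St3gal3 one of -0.68, both within 2-fold. Fut7, the fucosyltransferase that completes selectin ligands, had 3.35 FPKM in wildtype females, 4.02 FPKM in SryHi males and 3.77 FPKM in wildtype males.

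**Figure D3:**
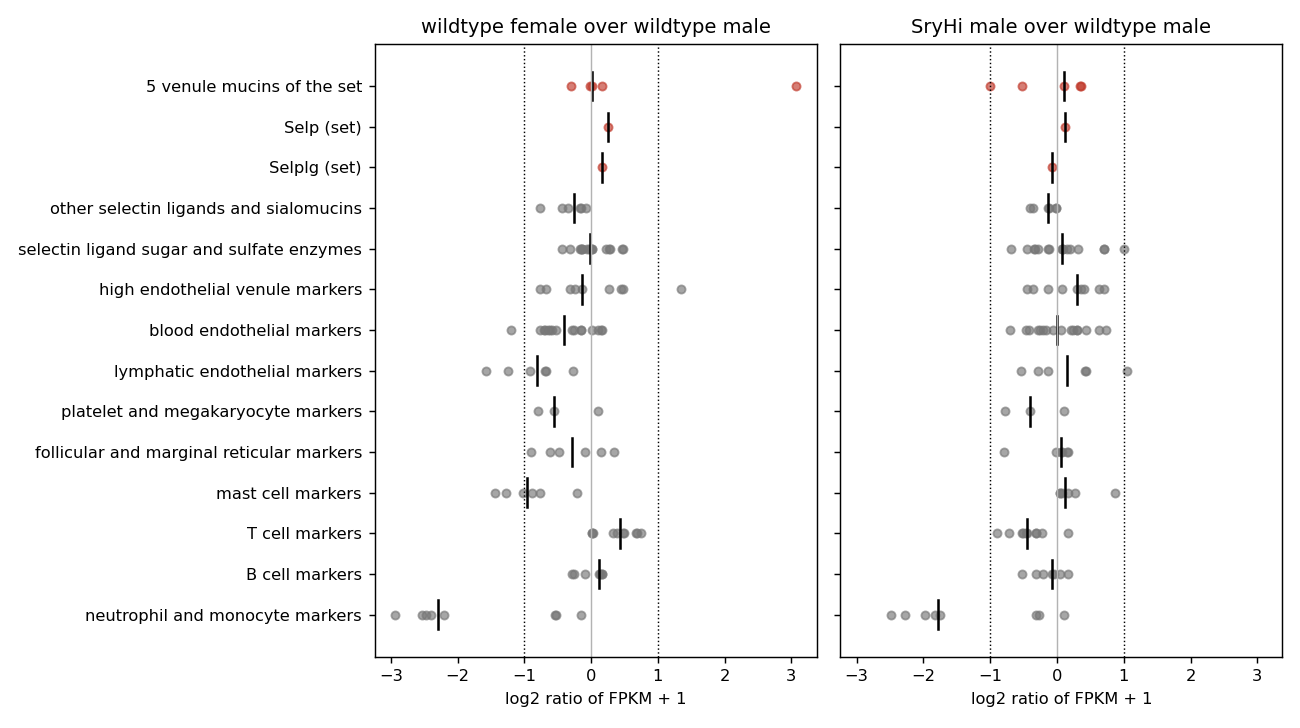
Log2 ratio of FPKM + 1 (x axis) of each gene kept, by list, for wildtype females and for SryHi males over wildtype males. Red points are genes of the set, grey points other lists, black bars list medians and dotted lines 2-fold, and in females the red point at 3.08 is Glycam1, beside a median of -0.13 for the venule markers.

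The call of Glycam1 in females held on every scale tried, from 2.78 after rescaling to TPM to 3.48 relative to the blood endothelial markers. TPM, the share of each gene in the FPKM sum of its library, depends here on the joining segments Ighj1 and Ighj4, which made up 72.6% of that sum in females and 35.4% in SryHi males, against 75.8% in wildtype males. In SryHi males it put all 5 members kept past 2-fold higher, but the median of all genes moved to 1.37. Relative to that median Glycam1 and Podxl were lower and Cd34, Emcn and Selplg higher. With each library scaled to the same sum over protein-coding genes, a scale chosen after the values were seen, Glycam1 was at 3.16 in females and at -0.51 in SryHi males.

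**Figure D4:**
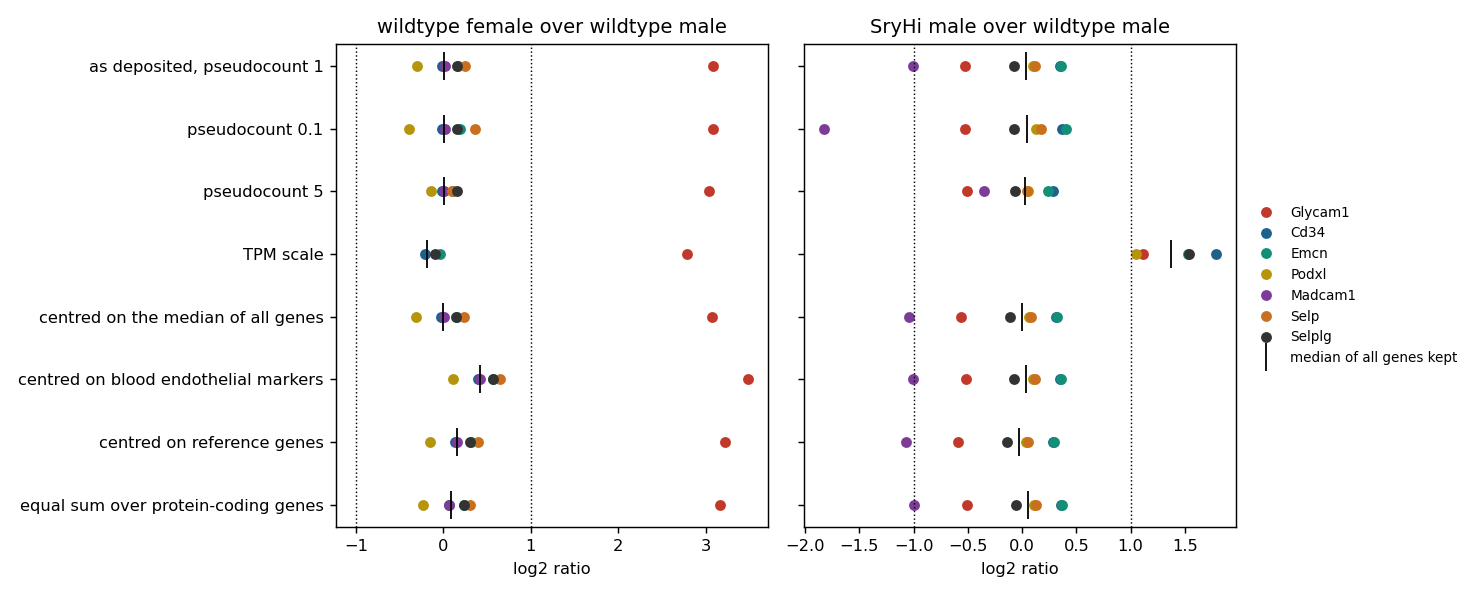
Log2 ratios (x axis) of the members kept under each scale or pseudocount (rows), for wildtype females and for SryHi males over wildtype males. Coloured points are genes, black ticks the median of all genes kept and dotted lines 2-fold, and Glycam1 stays between 2.78 and 3.48 in females, and in SryHi males the TPM row moves with its tick at 1.37.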

How the data were processed

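Pooled RNA of 6 wildtype females, 6 wildtype males and 3 SryHi males was made into 1 stranded library per group after removal of ribosomal RNA, and read as paired ends of 50 bases. By the study's methods the authors used HiSat2, Samtools, Cufflinks and Cuffdiff, with versions not given in the sources used here, and the labels name mm10. The authors deposited FPKM values as Cuffdiff output in 2 tables, each of 48808 entries. Their columns of fold changes, test statistics, p-values, q-values and calls were not used. A pair of blank lines in each was skipped.

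Entries of a symbol were summed (231 symbols). Each ratio compares the libraries of a single table, as log2 of FPKM + 1. Genes under a mean of 1 FPKM were left out, and calls were made at 2-fold. With 1 pool per group no test was run. Fragment numbers are approximate. They come from genes with 1 transcript of 3000 to 8000 nt, taking the median of FPKM times kb between 0.1 and 0.25 as 1 fragment. Positions, lengths and codons are from GENCODE release M21 (GRCm38), using the transcript with best support and the longest coding sequence. Python 3.11.15, pandas 2.3.3 and numpy 2.4.6 were used, and the ratio step was tested on simulated data.

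The members and the 18 gene lists were chosen with earlier results of these data known. All members are named, along with ligand and enzyme genes past 2-fold and the 5 genes nearest to Glycam1 among symbols other than predicted genes, pseudogenes and antigen receptor segments. By the same rule other ligands and enzymes, and up to 4 genes past 2-fold of a marker list, could be named, and not all are. Ackr1, Pecam1, Tnfsf11, Ccl21a, Gp6, Gp9, Csn2, Epcam, Krt8, Krt18, Itga2b, Itgb3, Pf4, Lyz2, Itgam and Csf1r were chosen after their values were seen. So were Icam2, Cr2, Fcer2a, Coch, Cd3d, Cd3e, Cd4 and Zap70. Alternatives were other pseudocounts, filters, scales and thresholds, of which the equal sum over protein-coding genes was added after the data were seen. A related gene is not reported here.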

Additional observations from a re-analysis of the deposited data

How the results depend on the processing

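Of 143 values of single members under other settings, 137 kept their direction where called and their side of 2-fold. In females the count of members called was 1 under all 11 alternatives. In SryHi males, where it was 1, it was 0 with a pseudocount of 5 FPKM and 0 at a mean of at least 5 FPKM, which drops Madcam1, Podxl and Selp by construction. On the TPM scale it was 5, with a median of 1.53. There Glycam1 (1.12) and Selplg (1.54) changed sign, beside a median of all genes of 1.37. Of all calls in SryHi males 98.9% were then higher, against 47.2% as deposited. In females the share higher was 83.4% relative to endothelial markers, 63.7% relative to reference genes and 39.3% as TPM, against 50.5% as deposited. The median over all genes was 0.42, 0.16 and -0.19 on these scales. Members not called in females also changed sign. Emcn (-0.04) and Selplg (-0.10) were below 0 as TPM, and Cd34 (0.39) and Podxl (0.11) above 0 relative to endothelial markers. No paired analysis was possible because each group is 1 pool. Sele and Madcam1 are limited by depth.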
